A study of Drosophila melanogaster with 6 samples.

Results

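The genes described here are 7 of Drosophila melanogaster whose products carry, load, transfer or bind lipids, lipid particles or small hydrophobic molecules. They are the apolipophorin Rfabg, the loading protein Mtp and the lipid transfer particle protein CG15828. The others are the lipophorin receptors LpR1 and LpR2 and the lipocalins NLaz and GLaz. The genes were taken by exact gene symbol from a deposited RNA-seq table of 13035 genes, and all 7 were found. RNA of whole adult male flies was measured on day 6 of adult life in 6 libraries, 3 labelled control and 3 labelled dERR mutant. Both groups had the genotype yw, hsFLP;; dERR[conditional] / dERR2, that is, a conditional allele of estrogen-related receptor (ERR, an orphan nuclear receptor) over a mutant one and a heat-inducible FLP recombinase. The mutant group received heat, for 1 h each on day 5 and day 6 of development counted from egg laying, to turn the recombinase on, and control flies, which carry the same alleles, were not heated. Loss of ERR and the earlier heat therefore cannot be told apart in this comparison. Whether each library came from separate flies is not given. The p-values therefore set the group difference against a spread between libraries that may be technical. The libraries held 13987814 to 16102936 gene-assigned reads, worked out from the step between values.

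Insects move lipid through the hemolymph on lipophorin, a reusable particle built on apolipophorin, which the fat body makes as a precursor that is then cut. Microsomal triglyceride transfer protein (Mtp) loads the particle with lipid inside fat body cells, and a separate lipid transfer particle moves lipid from the gut onto it. Lipophorin receptors of the low-density lipoprotein receptor family are needed for tissues to take the lipid up. Lipocalins are small secreted proteins that hold a hydrophobic molecule in a barrel. NLaz and GLaz are relatives of vertebrate apolipoprotein D and are known for roles in stress resistance and energy storage.

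In mutant flies the genes of the particle and of its loading were lower, the receptors did not pass the test, and 1 of the lipocalins was higher. Of the 7 genes, 3 fell (Rfabg, Mtp and CG15828), 1 rose (NLaz) and 3 were not called (LpR1, LpR2 and GLaz), by limma with an adjusted p under 0.05 over all genes. Of all genes tested, 9.47% were called lower and 4.73% higher. The authors' deposited table called 4 of the 7 lower (LpR2 in addition) and 1 higher, beside 9.04% and 4.49% of its genes. The median log2 change of the 7 genes was -0.36, beside 0.00 over all genes. All 7 had a mean of at least 5 CPM, which is normalized counts scaled to a common library total. The mutant libraries lay below every control library for 3 of the 7 genes, as for 16.9% of all genes, and above every control library for 1, as for 15.7% of all genes. ERR itself had 373, 497 and 539 normalized counts in the controls against 112, 119 and 107 in the mutants. Its transcript thus remained at 0.245 times the control level, and how completely the allele recombined in each tissue is not given. Whether reads of the dERR2 allele are part of this total is not given either.

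**Figure D1:**
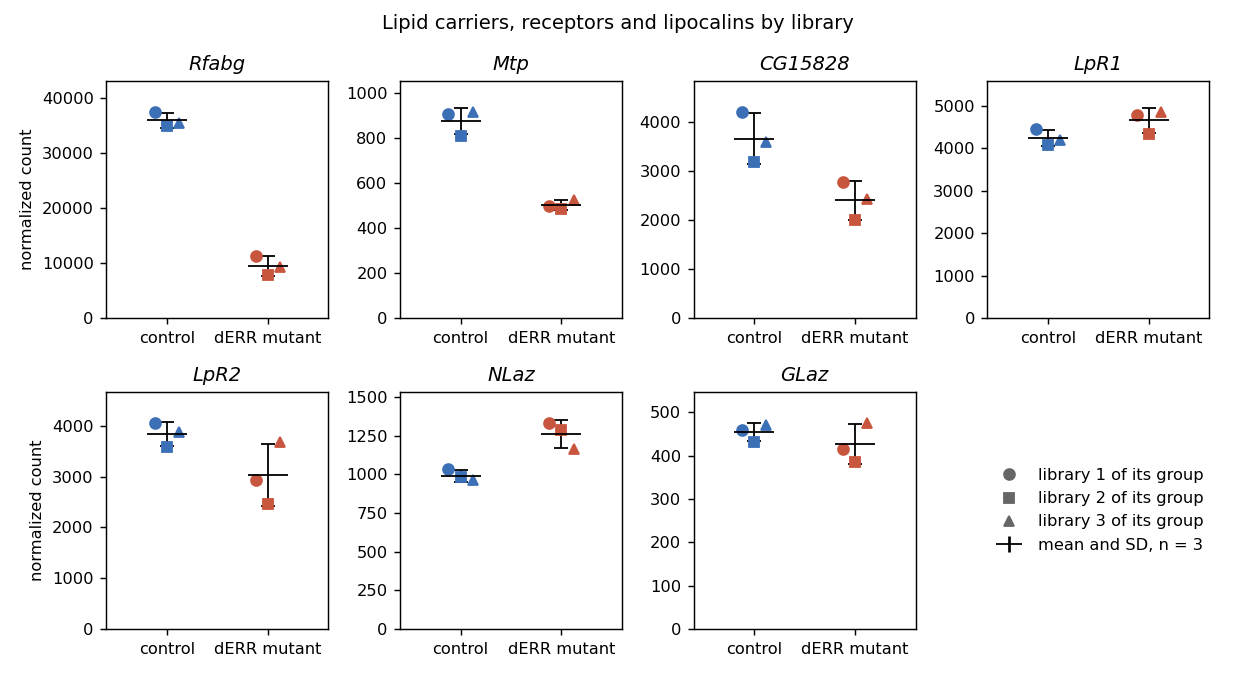
Normalized counts (vertical axis, from 0, a separate scale per gene) of the 7 genes in the 3 control (blue) and 3 dERR mutant (red) libraries, with the mean and SD of each group as black bars. Library numbers only name the libraries within a group. Rfabg, Mtp and CG15828 show mutant points below all control points, NLaz shows them above, and LpR1, LpR2 and GLaz overlap.

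The apolipophorin gene moved furthest. Rfabg (current symbol apolpp; FBgn0087002; chromosome 4, 1085537 to 1096830, dm3) had 37490, 35014 and 35400 normalized counts in the controls against 11398, 7828 and 9317 in the mutants. The highest mutant library was thus far below the lowest control library. The group means of 35968 ± 1332 and 9514 ± 1793 (SD, n = 3 each) gave a log2 difference of -1.93 ± 0.12 (SE; 95% interval -2.21 to -1.66; limma adjusted p = 3.08e-06), or 3.82-fold lower. Among the 10693 genes with a mean of at least 5 CPM it had the 41st largest fall. Its share of all normalized counts was 0.245%, 0.235% and 0.235% in the controls against 0.0788%, 0.0563% and 0.0652% in the mutants. In whole flies, fewer cells that make a transcript and less of it per cell cannot be told apart.

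Mtp, the protein that lipidates apolipoproteins in the endoplasmic reticulum, was also lower. The gene (FBgn0032904; 2L, 20919093 to 20922876, dm3) had 906, 809 and 917 normalized counts in the controls against 500, 485 and 528 in the mutants, with no overlap. The group means of 878 ± 59.4 and 504 ± 21.4 (SD, n = 3 each) gave a log2 difference of -0.80 ± 0.08 (SE; limma adjusted p = 6.32e-05), or 1.74-fold lower.

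CG15828 (current symbol Apoltp), the large apolipoprotein of the lipid transfer particle, fell as well. The gene (FBgn0032136; 2L, 9634200 to 9656026, dm3) had 4207, 3179 and 3592 normalized counts in the controls against 2786, 2000 and 2432 in the mutants. The groups did not overlap, although the spread within each was wider than for Mtp. Means of 3659 ± 517 and 2406 ± 394 (SD, n = 3 each) gave a log2 difference of -0.61 ± 0.13 (SE; limma adjusted p = 0.00812), or 1.52-fold lower. With a variance that is not allowed to vary with level the call ended (adjusted p = 0.0569, limma).

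The receptors sit next to each other on 3R, 881 bases apart in the deposited coordinates and on the same strand of the reference annotation. As close paralogs they may share reads. LpR1 (FBgn0066101; 3R, 21567069 to 21588827, dm3) had 4460, 4080 and 4195 normalized counts in the controls against 4786, 4326 and 4853 in the mutants. Mutant library 2 lay between the control libraries, so the groups overlapped. Means of 4245 ± 195 and 4655 ± 287 (SD, n = 3 each) gave a log2 difference of 0.13 ± 0.08 (SE; limma adjusted p = 0.303), and the 95% interval ran from -0.03 to 0.30.

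LpR2 (FBgn0051092; 3R, 21524487 to 21566187, dm3) had 4066, 3586 and 3882 normalized counts in the controls against 2945, 2467 and 3676 in the mutants. Mutant libraries 1 and 2 lay below all controls, and mutant library 3 lay among them. The group means of 3845 ± 242 and 3029 ± 609 (SD, n = 3 each) gave a log2 difference of -0.36 ± 0.12 (SE), which missed the threshold (adjusted p = 0.0841, limma; 95% interval of the change -0.64 to -0.09). In the authors' deposited table LpR2 had an adjusted p of 0.0392. Without mutant replicate 3 it was called lower, with a log2 change of -0.51 and an adjusted p of 0.0101 (limma), and without mutant replicate 2 the log2 change was -0.22 and the adjusted p 0.231 (limma).

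Of the lipocalins, NLaz was higher in the mutant flies. NLaz (neural Lazarillo; FBgn0053126; 2L, 1359982 to 1361732, dm3) had 1034, 980 and 960 normalized counts in the controls against 1333, 1284 and 1162 in the mutants. Each mutant library exceeded each control library. The group means of 991 ± 38.6 and 1259 ± 88.3 (SD, n = 3 each) gave a log2 difference of 0.34 ± 0.08 (SE; limma adjusted p = 0.0119), or 1.27-fold higher. The call ended without control replicate 3 (adjusted p = 0.0609), without mutant replicate 1 (adjusted p = 0.0560) and with scaling to ribosomal protein genes (log2 change 0.17, adjusted p = 0.242, limma). That scaling moved the median of all genes to -0.17, and relative to this median NLaz stood at 0.34.

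GLaz (glial Lazarillo; FBgn0033799; 2R, 9051558 to 9055535, dm3) had 458, 431 and 471 normalized counts in the controls against 416, 385 and 476 in the mutants. The groups overlapped, with the highest value in mutant library 3. Means of 453 ± 20.7 and 426 ± 46.2 (SD, n = 3 each) gave a log2 difference of -0.10 ± 0.09 (SE; limma adjusted p = 0.578), and the 95% interval ran from -0.30 to 0.11.

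Levels were compared between genes per kilobase of exon, with exon lengths from a reference annotation of another build. In control flies Rfabg stood first at 3057 ± 113 normalized counts per kb (SD, n = 3), rank 501 of 12741 genes with a length. NLaz followed at 863 ± 33.6, LpR2 at 698 ± 43.9, LpR1 at 639 ± 29.4, GLaz at 373 ± 17.0, Mtp at 300 ± 20.3 and CG15828 at 275 ± 38.8 normalized counts per kb. In control flies LpR2 and LpR1 overlapped between libraries, although LpR2 was the higher of the receptors in each of the 3 control libraries. Mtp and CG15828 overlapped as well, while the other neighbours in this order did not.

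In mutant flies the order at the top was different. NLaz stood first at 1096 ± 76.9 normalized counts per kb (SD, n = 3), above Rfabg at 809 ± 152 in each of the 3 mutant libraries and without overlap. Rfabg moved to rank 1911 among all genes with a length. LpR1 at 701 ± 43.3 normalized counts per kb overlapped Rfabg and also LpR2, at 550 ± 110, although LpR1 was the higher of the receptors in each of the 3 mutant libraries. GLaz followed at 350 ± 38.0, and CG15828 at 180 ± 29.5 and Mtp at 172 ± 7.31 normalized counts per kb overlapped each other.

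**Figure D2:**
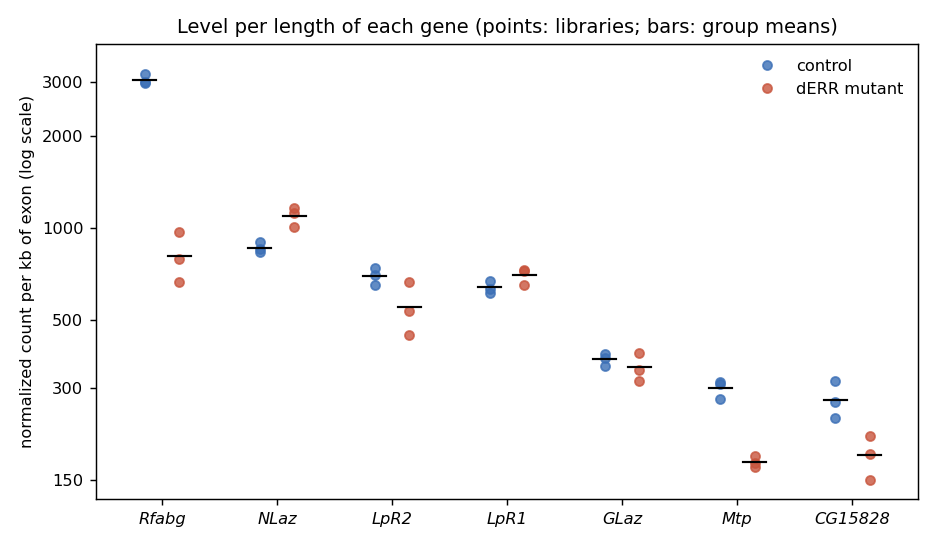
Normalized counts per kb of exon (vertical axis, log scale) of the 7 genes in control (blue) and dERR mutant (red) libraries; points are libraries and bars are group means. Rfabg stands at 3057 normalized counts per kb in control flies, well above the next gene, and at 809 in mutant flies, below NLaz at 1096.

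Ratios between genes within a library do not depend on how libraries are scaled, and 4 were compared between the groups. The log2 ratio of LpR1 to LpR2 was 0.13, 0.19 and 0.11 in the controls against 0.70, 0.81 and 0.40 in the mutants. The receptors were therefore in nearly the same proportion in all controls, and the ratio was above theirs in each mutant library. The mean log2 ratio was 0.49 higher in the mutant libraries.

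The log2 ratio of NLaz to GLaz was 1.13 ± 0.09 in control and 1.57 ± 0.24 in mutant libraries (SD, n = 3 each), a difference of 0.44. The log2 ratio of Mtp to Rfabg was -5.36 ± 0.08 in control and -4.22 ± 0.26 in mutant libraries, and that of CG15828 to Rfabg was -3.31 ± 0.15 and -1.98 ± 0.05 (SD, n = 3 each). Relative to the apolipophorin, the transcripts of the loading protein and of the transfer particle were thus higher in the mutant libraries by 1.14 and 1.33 on the log2 scale. Both ratios to Rfabg contain the fall of Rfabg itself and are not separate results. Single genes had all mutant libraries below all controls for 16.9% of all genes, and above them for 15.7%. How often other pairs of genes separate was not worked out. In all 4 ratios the groups did not overlap. The exact two-sided permutation test gave p = 0.10 for each, which is the smallest p that 3 against 3 libraries allow and does not pass 0.05, and the Benjamini-Hochberg adjusted p over the 4 ratios was 0.10 as well.

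**Figure D3:**
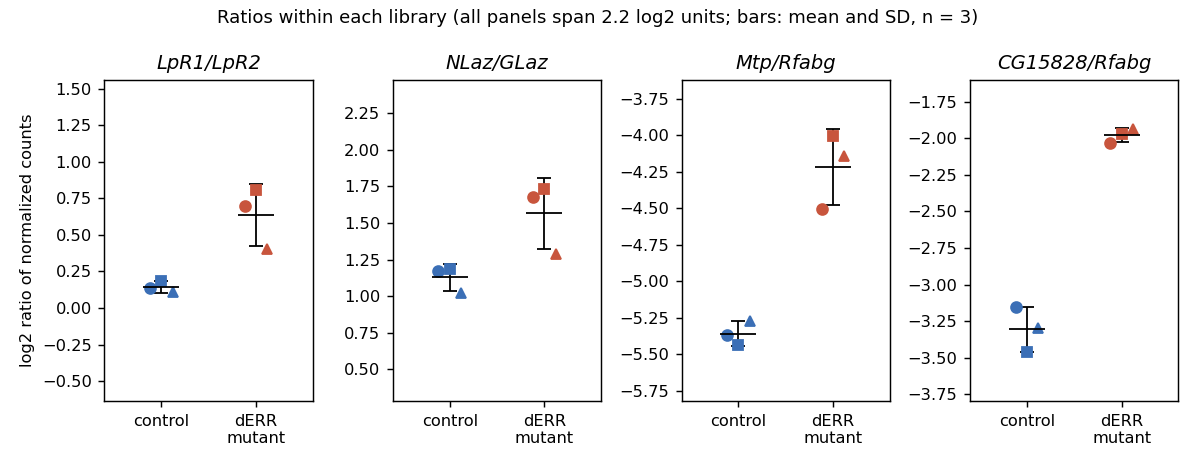
Log2 ratios of normalized counts of gene pairs (vertical axes, each spanning the same number of log2 units) in control (blue) and dERR mutant (red) libraries, with the mean and SD of each group. In every panel all mutant libraries lie above all control libraries, by 0.44 for NLaz/GLaz and by 1.33 for CG15828/Rfabg in the means.

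The same library of each group was lowest for most of the 7 genes. Mutant library 2 was the lowest of the mutant libraries for 6 of the 7 genes, the exception being NLaz, where mutant library 3 was lowest. Among genes with a mean of at least 5 CPM mutant library 2 was the lowest for 37.2%. Control library 2 was the lowest of the controls for 6 of the 7 as well, beside 35.8% of genes. The cause of this was not tested.

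Other genes of lipid handling mostly did not pass the test, and those that passed were lower. The list of 13, called the lipoprotein genes below, holds genes that build, fold or bind lipoproteins. It also holds the lipocalin Karl and the fatty acid genes fabp and Fatp. Of these 13 genes 4 fell, 0 rose and 9 were not called (1 of these, boca, had an unadjusted p under 0.05). The median log2 change was -0.23. Across all genes 14.2% were called in either direction. CG31150, the crossveinless d gene, encodes a further protein of the same large lipid transfer family as Rfabg, CG15828 and Mtp. It had 1415, 1040 and 1319 normalized counts in the controls against 877, 660 and 908 in the mutants. The groups did not overlap, and the log2 difference was -0.63 ± 0.14 (SE; limma adjusted p = 0.0104). This call ended without control replicate 1 (adjusted p = 0.0617), without control replicate 3 (adjusted p = 0.0564) and without a trended variance (adjusted p = 0.0642, limma).

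The other lipoprotein genes that fell were fabp, Fatp and Pdi, of which fabp and Fatp act in fatty acid binding and transport. The fatty acid binding protein fabp had 8013 ± 444 and 5528 ± 187 normalized counts in control and mutant flies (SD, n = 3 each), a log2 difference of -0.53 ± 0.07 (SE; limma adjusted p = 6.09e-04). The fatty acid transport protein Fatp had 4140 ± 298 and 2903 ± 256 (SD, n = 3 each), a log2 difference of -0.51 ± 0.09 (SE; limma adjusted p = 0.00212). Pdi, a protein disulfide isomerase whose mammalian counterpart is the small subunit of the microsomal transfer protein, fell by 0.27 ± 0.07 on the log2 scale (adjusted p = 0.0239, limma). Pdi kept its call only when control replicate 1 was the library left out and lost it with each of the other libraries left out (adjusted p 0.0624 to 0.0887, limma) and with scaling to library total (adjusted p = 0.0768, limma).

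The other receptors of the low-density lipoprotein receptor family were not called. The log2 changes were -0.33 ± 0.17 for the megalin gene mgl, -0.22 ± 0.12 for LRP1, -0.21 ± 0.11 for CG8909 (Lrp4) and -0.15 ± 0.09 for the Wnt co-receptor arr (SE). The yolk protein receptor yl, which acts in the oocyte, was at 0.947 CPM in these males and had a log2 change of -0.23 ± 0.30. The chaperone boca, needed to fold receptors of this family, had a log2 change of -0.34 ± 0.11 (adjusted p = 0.0551, limma). Without mutant replicate 3 CG8909 was called lower (adjusted p = 0.0412, limma), as was boca without control replicate 2 (adjusted p = 0.0285, limma), with the filter on low values, with a robust variance prior and with scaling to ribosomal protein genes (adjusted p 0.00852 to 0.0463, limma). The glypicans dally and dlp, cell-surface proteins that can bind lipophorin, stood at -0.18 ± 0.08 and 0.14 ± 0.09 (log2, SE). With scaling to ribosomal protein genes dally was called lower (log2 change -0.35, adjusted p = 0.0360, limma). That scaling, under which boca was called as well, moved the median of all genes to -0.17. The lipocalin Karl stood at -0.08 ± 0.21 (log2, SE).

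Among the 14 genes of the CD36 scavenger receptor family, membrane proteins of which several take up lipid, 4 fell and 0 rose, beside 9.47% of all genes called lower and 4.73% called higher, and the median log2 change was -0.12. CG2736 had 1987, 1584 and 2042 normalized counts in the controls against 740, 611 and 647 in the mutants, a log2 difference of -1.48 ± 0.11 (SE; limma adjusted p = 7.54e-06). The mutant libraries lay below all controls for each of the 4 and for crq, as for 16.9% of all genes. CG1887 (current symbol dsb) changed by -0.78 ± 0.14, CG3829 by -0.65 ± 0.07 and Snmp2, a paralog of the pheromone-sensing Snmp1, by -0.55 ± 0.08 (log2, SE). Of the 10 not called, 2 had an unadjusted p under 0.05: crq, the receptor for dying cells (-0.24 ± 0.09), and Snmp1 (0.20 ± 0.08). Snmp1 was called higher with scaling to library total (adjusted p = 0.0366, limma), which moved the median of all genes to 0.09. With scaling to ribosomal protein genes, which moved it to -0.17, crq and emp were called lower (adjusted p = 0.0343 and 0.0490, limma).

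**Figure D4:**
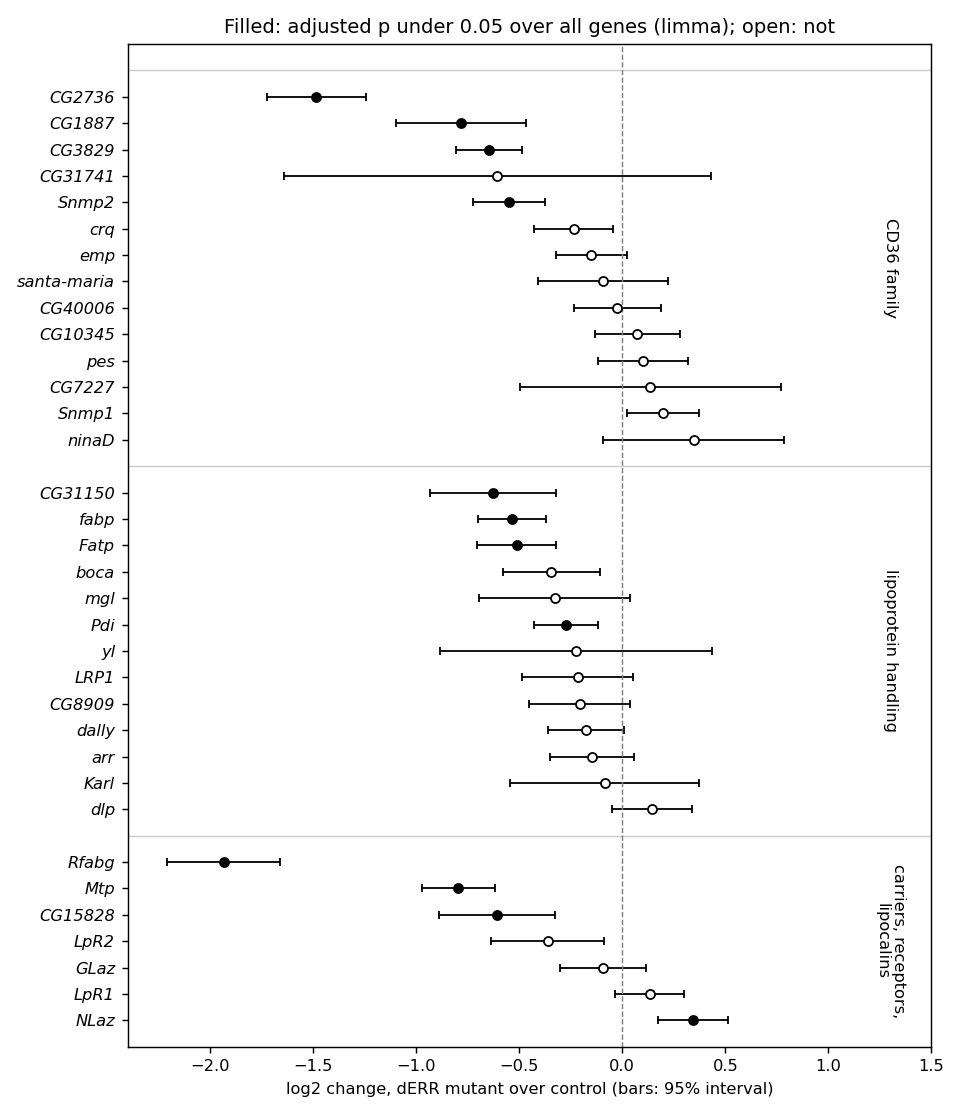
Log2 change of dERR mutant over control (horizontal axis; bars are 95% intervals) for the 7 genes, 13 other genes of lipoprotein handling and 14 genes of the CD36 family. Filled points passed an adjusted p of 0.05 over all genes (limma). All filled points lie left of 0 except NLaz at 0.34, and Rfabg lies furthest left at -1.93.

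Markers of fat body, the tissue that makes lipophorin, were mostly but not all lower in the mutant flies. Of 6 listed markers 5 fell and 1 rose, beside 9.47% of all genes called lower and 4.73% called higher. Their summed level was 23187 to 38682 normalized counts in the control and 10925 to 13842 in the mutant libraries. Tsf1 was the largest part of these sums, with 20939 ± 6055 in control and 6264 ± 1281 in mutant libraries (SD, n = 3 each). The falls were of uneven size: the larval serum protein Lsp2 changed by -5.61 ± 0.34, the iron carrier Tsf1 by -1.72 ± 0.21, Lsd-1, a perilipin that coats fat droplets, by -1.69 ± 0.15, the clotting protein fon by -0.50 ± 0.13 and fat-spondin by -0.44 ± 0.11, while takeout (to) rose by 0.41 ± 0.11 (log2, SE). The calls of fon, fat-spondin and to ended without a trended variance and without single libraries: control replicates 1 and 3 or mutant replicate 2 for fon, these or mutant replicate 3 for fat-spondin, and control replicates 2 and 3 or mutant replicates 1 and 3 for to (adjusted p 0.0545 to 0.117, limma). The call of to also ended with scaling to ribosomal protein genes (adjusted p = 0.212, limma). What part the amount of fat body has in the fall of Rfabg, Mtp and CG15828 was not tested.

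Markers of glia and neurons, for which the lipocalins are named, were measured too, as were markers of hemocytes and flight muscle. Of 7 glial markers 0 were called by limma (2 had an unadjusted p under 0.05, and the authors' deposited table called 1 lower), and their summed level was 18213 to 20555 in control and 16794 to 18261 normalized counts in mutant libraries. With scaling to ribosomal protein genes Gs2 and Eaat1 of these were called lower (adjusted p = 0.00777 and 0.0374, limma). That scaling moved the median of all genes to -0.17. Gs2 was also called without control replicate 2 (adjusted p = 0.0285, limma). The filter on low values (adjusted p = 0.0498, limma) and a robust variance prior (adjusted p = 0.0426, limma) gave the call too. Of 4 neuronal markers 0 were called (0 with an unadjusted p under 0.05, and 0 in the authors' deposited table), with sums of 10295 to 12040 and 9368 to 11477 normalized counts. Of 5 hemocyte markers 1 fell, srp, which fat body also expresses, and their sums were 2208 to 4033 and 1953 to 2861 normalized counts. The call of srp was lost without any single library except control replicate 2 or mutant replicate 1 (adjusted p 0.0542 to 0.108, limma), with scaling to library total (adjusted p = 0.0552, limma) and without a trended variance (adjusted p = 0.0715, limma). Without mutant replicate 1 the marker nimC1 was called lower (adjusted p = 0.0418, limma). Of 4 flight muscle markers 3 rose, with sums of 60212 to 69882 and 78496 to 96078 normalized counts. The fourth, Mhc, was called higher with quantile normalization (adjusted p = 0.00379, limma). No marker of these lists was at 0 in a library. Over all genes, 9.47% were called lower and 4.73% higher by limma. The part of these cell types in the values of NLaz and GLaz was not tested.

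The genes nearest to the 7 on the chromosome were looked at as well. Of 12 flanking genes that are not among the 7, 1 was called lower and 0 higher, beside 9.47% and 4.73% of all genes. The gene called, CG31659, lies 191 bases from NLaz and had a log2 difference of -0.56 ± 0.09 (SE; limma adjusted p = 0.00141), opposite in sign to NLaz. On either side of Rfabg, Zyx at 600 bases and Actbeta at 1114 bases had log2 changes of 0.00 ± 0.09 and 0.12 ± 0.09 (SE), neither of them called. No gene in the table overlapped any of the 7 in the deposited coordinates.

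The 5 genes with profiles most like that of Rfabg were CG15096, UGP, Gapdh2, CG15199 and Pgm. Likeness was the root mean square difference between log2 profiles over the 6 libraries, each centred on its own mean, and it ran from 0.108 for CG15096 to 0.140 for Pgm among 10692 genes compared. UGP makes UDP-glucose, Gapdh2 is a glyceraldehyde-3-phosphate dehydrogenase and Pgm is phosphoglucomutase. Because the groups differ strongly in Rfabg, this measure mostly picks genes with a group difference of similar size, and these had log2 changes from -2.11 (UGP) to -1.75 (CG15199).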

How the data were processed

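Poly(A)-selected RNA of whole male flies was made into stranded libraries, per the labels' protocols. The submitters' processing notes list Novoalign, DESeq2 and the build dm3, and neither the counting tool nor its strand setting is given there. The authors deposited normalized counts, a signal that is never negative: read counts divided by one factor per library. In each column all values were whole multiples of one step (tolerance 1e-06), which gave the read totals; the steps of 3 columns were too near 1 for a count test to be accepted. The authors' deposited log2 fold changes, their standard errors and test statistics (a score per gene), p-values and adjusted p-values were used only where named.

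The planned test for normalized values was used: limma 3.58.1 in R 4.3.3 with a trended variance on log2(normalized count + 1), group only, all 13035 genes, Benjamini-Hochberg adjustment and a threshold of 0.05. The pseudocount understates changes of low genes. Tables and permutation tests used Python 3.11.15, pandas 2.3.3, numpy 2.4.6 and scipy 1.17.1, and figures matplotlib 3.10.9. The fit was tested on simulated data with 200 changed genes and the same dispersion for every gene. That setting is simpler than these libraries, so it checks the code and not the error rate here. Between libraries of the same group, chi-square per gene was 7.13 to 13.7 (1 for sampling alone), so none was treated as a repeat deposit. Named genes are the 7, all 13 lipoprotein genes, CD36 genes and markers past the threshold, and the 5 genes most like Rfabg. Others were named after their values were seen: crq, emp, Snmp1, CG31659, Zyx, Actbeta and the markers Gs2, Eaat1, nimC1 and Mhc. The members and lists were chosen with earlier results of these data known. The exon lengths come from BDGP6, where the identifier of Mtp was matched by its symbol.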

Additional observations from a re-analysis of the deposited data

How the results depend on the processing

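The 7 genes were refitted under 15 alternatives each. Rfabg, Mtp, LpR1 and GLaz kept their side of the threshold in all 15, with log2 changes of -2.11 to -1.80, -0.97 to -0.71, -0.04 to 0.22 and -0.27 to -0.01; LpR1 was below 0 with scaling to ribosomal protein genes. CG15828 (-0.78 to -0.48) lost its call in 1 and NLaz (0.17 to 0.43) in 3. LpR2 (-0.53 to -0.22) gained one in 2, without mutant replicate 3 and with ribosomal protein scaling (adjusted p = 0.0181, limma). That scaling moved the median of all genes to -0.17, and relative to this median LpR2 stood at -0.37 and LpR1 at 0.13. The number called higher among the 7 was 0 with scaling to ribosomal protein genes, and 0 to 1 without one library. The number called lower ran from 2 to 4 over the alternatives and from 3 to 4 without one library. Among the lipoprotein genes 2 to 4 were called without one library, with 2 without control replicate 3, and 2 to 6 over all alternatives; in the CD36 family 4 to 6 were called, the fifth with scaling to library total being higher (Snmp1) and those added with scaling to ribosomal protein genes lower (crq, emp). Over all genes 1851 were called, 1256 to 2330 under the alternatives. Without one library the log2 ratio differences ran from 0.41 to 0.61 for LpR1/LpR2, 0.35 to 0.58 for NLaz/GLaz, 1.03 to 1.28 for Mtp/Rfabg and 1.25 to 1.40 for CG15828/Rfabg. The causes were not tested. No paired analysis was possible because the labels give no pairing and the replicate numbers only name libraries.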
